A study of Homo sapiens with 24 samples.

Results

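FOXP1 and TCF7L2 are transcription factor genes that the microarray used here measured with several probe sets each, and every one of these probe sets was followed on its own. A probe set is a group of short oligonucleotides on the array that together give 1 value for a transcript or a group of transcripts. All probe sets annotated to FOXP1 or TCF7L2 and to no other gene were taken, which gave 19 probe sets, 12 of FOXP1 and 7 of TCF7L2, of 44994 probe sets with a single gene symbol. These stood for 2 of 18132 genes. In each cell line, a probe set was called bright when its mean log2 intensity in the DMSO arrays was above 6.64, an intensity of 100, and dim otherwise.

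The study looked for markers of prognosis in osteosarcoma among genes tied to super-enhancers, large clusters of active enhancers, and took sensitivity to inhibitors of transcriptional kinases as 1 of its criteria. SJSA-1 and U2-OS, established human osteosarcoma lines derived from bone tumours, were treated for 6 h with 50 nM, 200 nM or 800 nM THZ531, a covalent inhibitor of the kinases CDK12 and CDK13, which phosphorylate RNA polymerase II during elongation. Control cells received the solvent DMSO, and all cells were grown in the same serum-supplemented medium. Total RNA of 24 samples, 3 for each of the 8 combinations of line and treatment, was hybridised to Affymetrix PrimeView arrays. Whether the 3 arrays of a group stand for separate cultures is not given in the sources used here, and the p-values therefore measure only the spread between these arrays. The study picked both genes partly for their sensitivity to this compound, so a fall of their signal in these arrays is not independent evidence of a response.

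FOXP1 belongs to the forkhead family, whose members bind DNA through a winged-helix domain, and it acts mostly as a repressor together with corepressor complexes. TCF7L2 is a factor of the TCF/LEF family: it sits on Wnt target genes with Groucho-type corepressors until beta-catenin enters the nucleus and converts it into an activator. Both genes are long, have several promoters and give many splice forms, so probe sets of 1 gene can report on different transcripts. In the names of the probe sets, _a_at marks a set that matches several transcripts of 1 gene. The ending _s_at marks a set whose probes are shared by several transcripts, which may come from more than 1 gene. The ending _x_at marks a set with probes that may also bind other sequences.

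RefSeq (GRCh38.p14) lists 6 starts for FOXP1 and 3 for TCF7L2 among its promoter windows, and 3 of these windows are shown because they carry the letters TGTTTA, the core that forkhead proteins recognise, on the strand of the gene or the other strand. Capitals mark the match, and each run is the 250 bases before the start, read 5′ to 3′ along the gene.
FOXP1 chr3:71245078-71245327 (minus strand): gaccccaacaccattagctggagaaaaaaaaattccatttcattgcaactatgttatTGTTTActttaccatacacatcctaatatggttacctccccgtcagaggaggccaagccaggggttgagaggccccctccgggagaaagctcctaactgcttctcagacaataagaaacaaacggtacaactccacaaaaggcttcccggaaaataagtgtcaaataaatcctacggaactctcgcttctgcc
FOXP1 chr3:71064925-71065174 (minus strand): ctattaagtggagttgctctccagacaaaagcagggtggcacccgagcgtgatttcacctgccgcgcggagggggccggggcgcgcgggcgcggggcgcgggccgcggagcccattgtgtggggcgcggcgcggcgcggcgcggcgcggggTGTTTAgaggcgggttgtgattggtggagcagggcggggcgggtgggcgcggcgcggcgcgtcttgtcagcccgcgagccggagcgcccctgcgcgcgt
TCF7L2 chr10:112949997-112950246 (plus strand): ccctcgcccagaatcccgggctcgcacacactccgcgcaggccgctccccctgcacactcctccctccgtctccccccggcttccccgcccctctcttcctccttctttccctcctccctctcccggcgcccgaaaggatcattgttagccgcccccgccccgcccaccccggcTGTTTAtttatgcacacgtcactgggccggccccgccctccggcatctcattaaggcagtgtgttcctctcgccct
The 3 windows differed in base composition. The first FOXP1 window held 6 CpG and 45.2% G and C, the second 41 CpG and 75.6%, and the TCF7L2 window 21 CpG and 68.0%, where the median of all windows was 11 CpG. TGTTTA occurred in 2 of 6 FOXP1 windows and 1 of 3 TCF7L2 windows, and in 11.0% of 35116 windows of the same length. CTTTGA, the core of the TCF/LEF motif, occurred in 0 of 6 and 0 of 3 windows, against 11.2% of all windows. TGANTCA, the AP-1 motif, occurred in 1 of 6 FOXP1 and 0 of 3 TCF7L2 windows, against 6.57% of all. Such matches are descriptions of letters and not of bound sites.

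Median intensities of the arrays, which normalization makes alike, lay between 30.1 and 33.6, and replicate arrays correlated at 0.995 to 0.998 over all probe sets. Of osteoblast markers, 0 of 10 were bright in SJSA-1 and 4 of 10 in U2-OS. The labels' extraction text names a tissue other than bone and another kit than their treatment text, and of 11 neuronal and glial markers 0 were bright in SJSA-1 and 1, NEFL, in U2-OS, while 0 of 8 markers of leukocytes and endothelium were bright in either line. MDM2 averaged 10.66 in SJSA-1 and 7.18 in U2-OS on the log2 scale in DMSO, and CDK4, its neighbour in the amplified region known from SJSA-1, averaged 12.65 in SJSA-1 and 10.90 in U2-OS.

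Which probe sets could be read depended on the line. In SJSA-1, 7 of 12 FOXP1 and 3 of 7 TCF7L2 probe sets were bright, and in U2-OS 4 of 12 and 4 of 7. Across the 19, 7 were bright in both lines and 8 in neither. Just inside the limit lay 11732281_s_at (FOXP1) at 6.83 in SJSA-1, and 11732277_a_at (FOXP1) at 6.91 and 11746313_a_at (TCF7L2) at 6.95 in U2-OS. Just outside lay 11758236_s_at (FOXP1) at 6.59 and 11746313_a_at at 6.46 in SJSA-1. In U2-OS the highest of the dim sets, 11732280_a_at (FOXP1), lay further below the limit, at 6.13. Several sets were designed on 1 target and are not independent readings: 11732277_a_at with 11732278_at, 11732280_a_at with 11732281_s_at and 11730665_a_at with 11730666_at for FOXP1, and 11746313_a_at, 11746314_s_at and 11746315_x_at for TCF7L2.

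**Figure D1:**
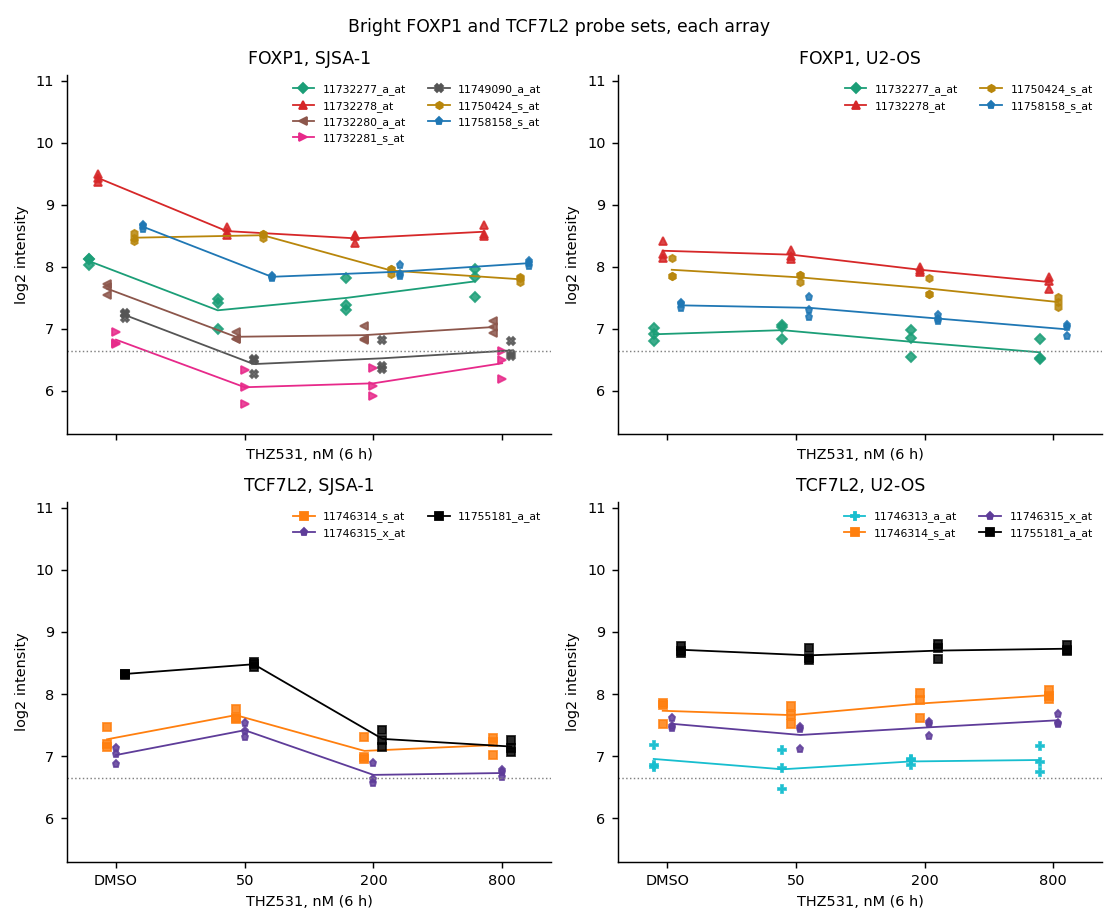
Log2 intensity (y axis) of the bright FOXP1 (top) and TCF7L2 (bottom) probe sets on every array against treatment (x axis: DMSO and 50, 200 and 800 nM THZ531), with SJSA-1 left and U2-OS right. Points are single arrays, lines join group means, and the dotted line is the limit of 6.64; FOXP1 signals in SJSA-1 are lower from 50 nM on except 11750424_s_at, while 11755181_a_at of TCF7L2 is lower from 200 nM on in SJSA-1.

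In SJSA-1, most FOXP1 probe sets were already lower at 50 nM THZ531 and stayed lower at the higher doses. 11732278_at, the brightest, gave log2 intensities of 9.49, 9.37 and 9.44 in DMSO, 8.65, 8.52 and 8.56 at 50 nM, 8.51, 8.49 and 8.38 at 200 nM, and 8.68, 8.53 and 8.49 at 800 nM. No treated array reached the lowest DMSO array. 11758158_s_at gave 8.67, 8.66 and 8.61 in DMSO, 7.86, 7.84 and 7.82 at 50 nM, 8.03, 7.89 and 7.85 at 200 nM, and 8.06, 8.02 and 8.10 at 800 nM, again with no overlap. Both dropped to their treated level at the lowest dose. Against DMSO, 11732278_at changed by -0.86 ± 0.07 (log2 ± SE, n = 3 per group), -0.97 ± 0.07 and -0.87 ± 0.07 at 50, 200 and 800 nM (limma, Benjamini-Hochberg adjusted p = 3.3e-07, 7.04e-08 and 2.3e-07), so its signal was 1.81-, 1.96- and 1.82-fold lower. 11758158_s_at changed by -0.81 ± 0.06, -0.72 ± 0.06 and -0.59 ± 0.06 (adjusted p = 1.64e-07, 3.65e-07 and 3.23e-06, limma).

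The other low-dose responders of FOXP1 followed the same course with less signal. 11732280_a_at gave 7.68, 7.54 and 7.73 in DMSO, 6.95, 6.84 and 6.83 at 50 nM, 7.04, 6.84 and 6.82 at 200 nM, and 6.94, 7.12 and 7.03 at 800 nM. 11749090_a_at gave 7.24, 7.25 and 7.18 in DMSO, 6.50, 6.28 and 6.52 at 50 nM, 6.82, 6.41 and 6.35 at 200 nM, and 6.56, 6.81 and 6.59 at 800 nM. The treated arrays of both lay below every DMSO array at each dose. The changes of 11732280_a_at were -0.78, -0.75 and -0.62 and those of 11749090_a_at -0.79, -0.70 and -0.57, and all 6 passed an adjusted p of 0.05 in limma.

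11732277_a_at and 11732281_s_at were less tightly measured. 11732277_a_at gave 8.03, 8.13 and 8.12 in DMSO, 7.42, 7.0 and 7.48 at 50 nM, 7.82, 7.38 and 7.30 at 200 nM, and 7.51, 7.96 and 7.83 at 800 nM. 11732281_s_at gave 6.76, 6.95 and 6.77 in DMSO, 6.33, 5.79 and 6.06 at 50 nM, 6.37, 6.08 and 5.92 at 200 nM, and 6.19, 6.65 and 6.50 at 800 nM. Their arrays did not overlap with DMSO at any dose, and those at 800 nM came closest to it. The changes at 50 nM were -0.79 ± 0.15 and -0.77 ± 0.15 (adjusted p = 0.00084 and 0.000888, limma), and at 800 nM -0.33 ± 0.15 and -0.38 ± 0.15, where neither passed (adjusted p = 0.101 and 0.0531, limma).

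11750424_s_at was the bright FOXP1 set that did not change at the lowest dose. It gave 8.46, 8.54 and 8.41 in DMSO, 8.53, 8.53 and 8.47 at 50 nM, 7.97, 7.97 and 7.88 at 200 nM, and 7.82, 7.75 and 7.83 at 800 nM. The 50 nM arrays overlapped with DMSO and those of the 2 higher doses did not. Its change was 0.04 ± 0.06 at 50 nM (adjusted p = 0.64, limma; -0.34 when scaled to the spiked-in controls), then -0.53 ± 0.06 at 200 nM and -0.67 ± 0.06 at 800 nM (adjusted p = 6.41e-06 and 6.39e-07, limma). Of the 7 bright FOXP1 sets it was the only one called between 200 and 50 nM (-0.57, adjusted p = 7.03e-06, limma). The dim set 11752099_s_at had the same course: it changed by 0.27 ± 0.11 at 50 nM (adjusted p = 0.0719), -0.52 ± 0.11 at 200 nM (adjusted p = 0.00169) and -0.58 ± 0.11 at 800 nM (adjusted p = 0.00084), and by -0.80 ± 0.11 between 200 and 50 nM (adjusted p = 0.000106, all limma).

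TCF7L2 in SJSA-1 split by dose and by probe set. 11755181_a_at gave 8.33, 8.33 and 8.31 in DMSO, 8.43, 8.52 and 8.49 at 50 nM, 7.42, 7.26 and 7.15 at 200 nM, and 7.07, 7.26 and 7.13 at 800 nM. All 3 arrays at 50 nM lay above DMSO and all at the higher doses lay well below it. The change at 50 nM was 0.16 ± 0.07 and did not pass (adjusted p = 0.118, limma), while those at 200 and 800 nM, -1.05 ± 0.07 and -1.17 ± 0.07, were falls of 2.07- and 2.25-fold (adjusted p = 6.86e-08 and 2.12e-08, limma). It was the only bright set of either gene with a change past 2-fold at any dose.

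The other TCF7L2 sets rose at 50 nM and fell less or not at all at the higher doses. 11746314_s_at gave 7.20, 7.47 and 7.14 in DMSO, 7.60, 7.62 and 7.76 at 50 nM, 7.31, 6.98 and 6.96 at 200 nM, and 7.02, 7.29 and 7.22 at 800 nM. 11746315_x_at gave 7.04, 7.13 and 6.88 in DMSO, 7.53, 7.31 and 7.41 at 50 nM, 6.89, 6.63 and 6.57 at 200 nM, and 6.74, 6.77 and 6.67 at 800 nM. For both, the 50 nM arrays lay above all DMSO arrays; the 200 nM arrays of both and the 800 nM arrays of 11746314_s_at overlapped with DMSO. At 50 nM the changes were 0.39 ± 0.11 and 0.40 ± 0.09 (adjusted p = 0.0127 and 0.00337, limma), but they were 0.01 and 0.02 and did not pass when arrays were scaled to the spiked-in poly-A and hybridization controls. 11746314_s_at changed by -0.19 at 200 nM and -0.09 at 800 nM and passed at neither dose, whereas 11746315_x_at changed by -0.32 ± 0.09 and -0.29 ± 0.09 and passed at both (adjusted p = 0.0111 and 0.0213, limma). The rise of 11746314_s_at did not pass without DMSO replicate 3 (0.32) or 50 nM replicate 3 (0.34).

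**Figure D2:**
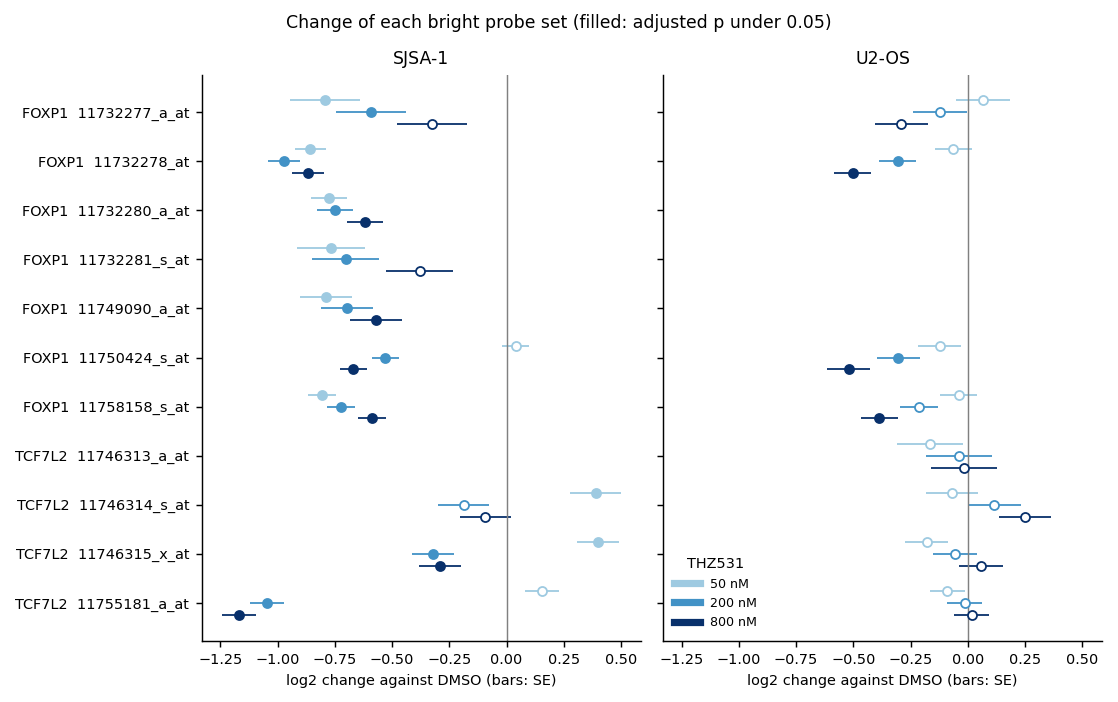
Log2 change against DMSO (x axis, bars are SE) of each bright probe set (y axis) at 50, 200 and 800 nM THZ531, light to dark, with SJSA-1 left and U2-OS right; filled points passed an adjusted p of 0.05 in limma. In SJSA-1 the FOXP1 changes cluster between -0.33 and -0.97 apart from 11750424_s_at at 50 nM, and 11755181_a_at reaches -1.17.

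Counted over the 10 bright sets of SJSA-1, 6 were lower and 2 higher at 50 nM, 9 lower and 0 higher at 200 nM, and 7 lower and 0 higher at 800 nM. Among all 14783 bright probe sets of this line, limma called 31.9% lower and 25.3% higher at 50 nM, 33.2% lower and 32.6% higher at 200 nM, and 29.4% lower and 36.5% higher at 800 nM. The median change of the 7 FOXP1 sets was -0.79, -0.70 and -0.59 at 50, 200 and 800 nM and that of the 3 TCF7L2 sets 0.39, -0.32 and -0.29, beside -0.01, 0.03 and 0.07 over all bright sets. Between 200 and 50 nM, 4 of the 10 sets fell: 11755181_a_at (-1.2), 11746315_x_at (-0.72), 11746314_s_at (-0.58) and 11750424_s_at (-0.57), so that all 3 TCF7L2 sets are among them. Limma called 49.8% of all bright sets in either direction at this step. Between 800 and 200 nM, limma called 0 of 10 sets, with 3 at an unadjusted p under 0.05, where 19.8% of all bright sets were called.

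Within each gene, the probe sets of SJSA-1 were then set against each other on the same array. For each bright set, the mean of the other bright sets of its gene was subtracted before the fit, so that a shift shared by the whole gene or array cancels. At 50 nM, 11750424_s_at lay 0.84 ± 0.09 above the other FOXP1 sets, which averaged -0.80 (adjusted p = 1.94e-05, limma), and 11755181_a_at lay 0.24 ± 0.07 below the other TCF7L2 sets (a difference of -0.24, adjusted p = 0.0239, limma). This second difference did not pass without DMSO replicate 1 or 3 or without 50 nM replicate 1 or 3, where the count was 1.
At 200 and 800 nM the differences within TCF7L2 widened in size. 11755181_a_at differed by -0.79 ± 0.07 and -0.98 ± 0.07 from the other sets, 11746314_s_at by 0.50 ± 0.07 and 0.64 ± 0.07, and 11746315_x_at by 0.30 ± 0.07 and 0.34 ± 0.07 (adjusted p between 1.05e-06 and 0.00838, limma). With 3 sets, these differences are not independent of each other, since each set enters the mean of the others. In FOXP1, 11732278_at differed by -0.31 ± 0.09 and -0.34 ± 0.09 (adjusted p = 0.0214 and 0.0112, limma), and 11750424_s_at did not pass.

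In all, 2, 4 and 4 of 10 sets of SJSA-1 differed from the rest of their gene at 50, 200 and 800 nM. With a brightness limit of 200 the counts were 4, 2 and 1, of fewer sets and all of FOXP1. Only 11755181_a_at of TCF7L2 was above that limit, so TCF7L2 could not be tested there. With dim sets entered the counts were 4 and 2 at 50 and 200 nM, and with diffSplice 1 and 2 at 50 and 200 nM. Among the 10440 bright sets of genes with at least 2 bright sets, 26.3%, 35.2% and 40.5% differed from the rest of their gene. In U2-OS limma called 0 of 8 sets at each dose, with 0 at an unadjusted p under 0.05, where 0%, 3.86% and 11.9% of 10083 sets were called. As a description over the 12 arrays of SJSA-1, the bright FOXP1 sets correlated pairwise at 0.01 to 0.97 and the TCF7L2 sets at 0.74 to 0.91, and over those of U2-OS at 0.37 to 0.93 and 0.20 to 0.82.

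**Figure D3:**
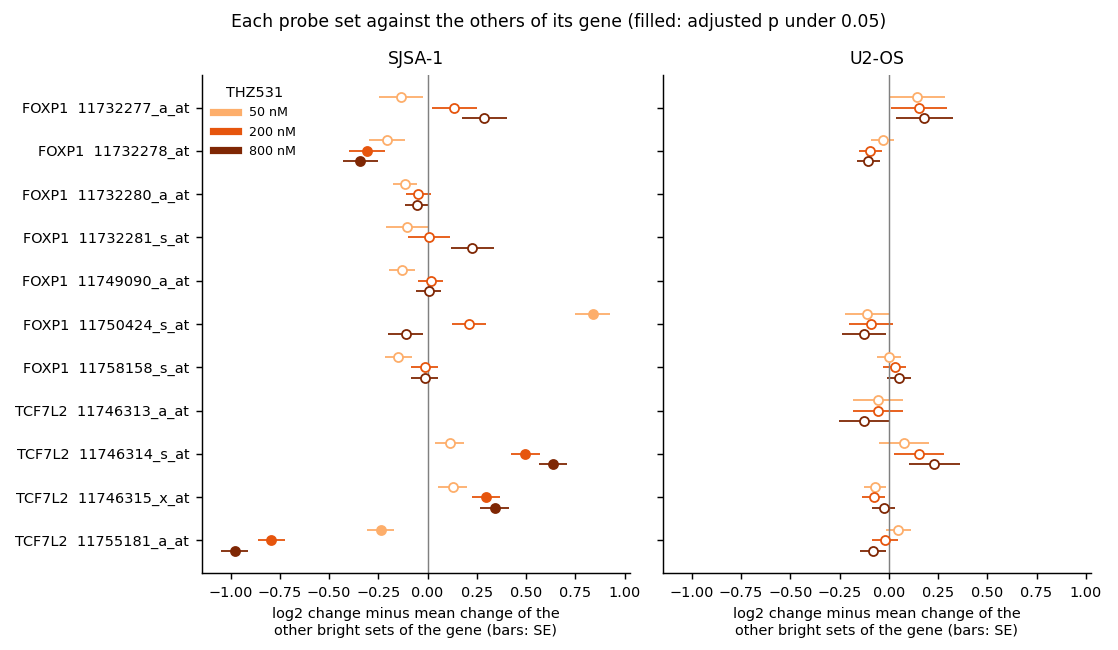
Log2 change of each bright probe set minus the mean change of the other bright sets of its gene (x axis, bars are SE) by probe set (y axis) at 50, 200 and 800 nM THZ531, with SJSA-1 left and U2-OS right; filled points passed an adjusted p of 0.05 in limma. 11750424_s_at stands at 0.84 at 50 nM and 11755181_a_at at -0.98 at 800 nM in SJSA-1, and no point is filled in U2-OS.

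Among the bright sets of U2-OS, those called were of FOXP1, at 200 and 800 nM. 11732278_at gave 8.15, 8.21 and 8.42 in DMSO, 8.28, 8.18 and 8.13 at 50 nM, 7.91, 8.0 and 7.95 at 200 nM, and 7.78, 7.65 and 7.84 at 800 nM. 11750424_s_at gave 7.85, 7.86 and 8.15 in DMSO, 7.87, 7.87 and 7.75 at 50 nM, 7.56, 7.82 and 7.57 at 200 nM, and 7.51, 7.43 and 7.36 at 800 nM. Their arrays at 50 nM overlapped with DMSO and those at 200 and 800 nM did not. The changes of 11732278_at were -0.31 ± 0.08 at 200 nM and -0.50 ± 0.08 at 800 nM (adjusted p = 0.0142 and 0.000179, limma), and those of 11750424_s_at -0.30 ± 0.09 and -0.52 ± 0.09 (adjusted p = 0.0345 and 0.000514, limma). DMSO replicate 3 was the highest array of both, and without it the 200 nM changes were -0.23 and -0.21 and neither passed. The same happened without 200 nM replicate 1 (-0.28 and -0.26), and that of 11750424_s_at also did not pass without 200 nM replicate 3 (-0.26).

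The remaining FOXP1 sets of U2-OS moved less. 11758158_s_at gave 7.41, 7.33 and 7.40 in DMSO, 7.52, 7.31 and 7.19 at 50 nM, 7.12, 7.16 and 7.22 at 200 nM, and 7.03, 6.89 and 7.06 at 800 nM, a change of -0.39 ± 0.08 at 800 nM (adjusted p = 0.00183, limma). 11732277_a_at gave 6.53, 6.51 and 6.83 at 800 nM and 6.92, 7.02 and 6.80 in DMSO, and the 2 groups overlapped (-0.29 ± 0.12, adjusted p = 0.0741, limma).

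No bright TCF7L2 set of U2-OS passed at any dose, with changes between -0.18 and 0.25. 11755181_a_at, the bright set with the deepest fall in SJSA-1, gave 8.66, 8.70 and 8.78 in DMSO, 8.74, 8.58 and 8.55 at 50 nM, 8.80, 8.56 and 8.74 at 200 nM, and 8.71, 8.69 and 8.79 at 800 nM, which overlapped throughout. Scaled to the spiked-in controls, which shifted the median of all sets by -0.51 at 800 nM, its change was -0.49 and that of 11746315_x_at -0.45. 11746314_s_at gave 7.92, 7.96 and 8.06 at 800 nM and 7.83, 7.85 and 7.51 in DMSO, so that each 800 nM array lay just above every DMSO array (0.25 ± 0.11, adjusted p = 0.116, limma).

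Of the 8 bright sets in U2-OS, limma called 0 lower at 50 nM, 2 at 200 nM and 3 at 800 nM, all of FOXP1, with 0, 3 and 4 at an unadjusted p under 0.05. Scaled to the spiked-in controls, 6 and 7 of 8 were lower at 200 and 800 nM, so that TCF7L2 sets were among them. With the deposited scaling it called 0 higher at each dose, with 0, 0 and 1 at an unadjusted p under 0.05. Of all 14671 bright sets, 0.552% were lower and 0.872% higher at 50 nM, 17.9% and 12.3% at 200 nM, and 28.4% and 23.3% at 800 nM. The median change was -0.05, -0.26 and -0.44 over the 4 FOXP1 sets and -0.13, -0.03 and 0.04 over the 4 TCF7L2 sets, beside -0.01 at each dose over all bright sets. From 50 to 200 nM and from 200 to 800 nM, limma called 0 of 8 sets, with 1 and 2 at an unadjusted p under 0.05, where 12.6% and 23.5% of all bright sets were called. Without DMSO replicate 3, 1 set was called at the first step, and scaled to the spiked-in controls 4 sets were called at each step.

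The difference between the lines was tested directly for the 7 sets bright in both. At 50 nM, the changes of 11732277_a_at, 11732278_at and 11758158_s_at of FOXP1 were more negative in SJSA-1, and those of 11746314_s_at and 11746315_x_at of TCF7L2 more positive, which makes 3 lower and 2 higher of 7. At 200 nM the change was lower in SJSA-1 for 11732278_at, 11758158_s_at and 11755181_a_at, and at 800 nM for 11732278_at and 11755181_a_at, and higher for 0 of 7 at both doses (limma). Among 12614 sets bright in both lines, limma called the change lower in SJSA-1 for 24.0%, 27.7% and 25.6% at 50, 200 and 800 nM and higher for 18.1%, 25.8% and 30.9%. The difference of 11746314_s_at at 50 nM lay close to the threshold (adjusted p = 0.0467, limma), and the count of higher changes was 1 in 14 of 24 fits that left out 1 array. Scaled to the spiked-in controls, 0 changes were higher at 50 nM and 1, that of 11755181_a_at, was lower at 800 nM. Without SJSA-1 200 nM replicate 1, 5 changes were lower at 200 nM. The widest gap was that of 11755181_a_at at 800 nM, -1.19 (SJSA-1 minus U2-OS).

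**Figure D4:**
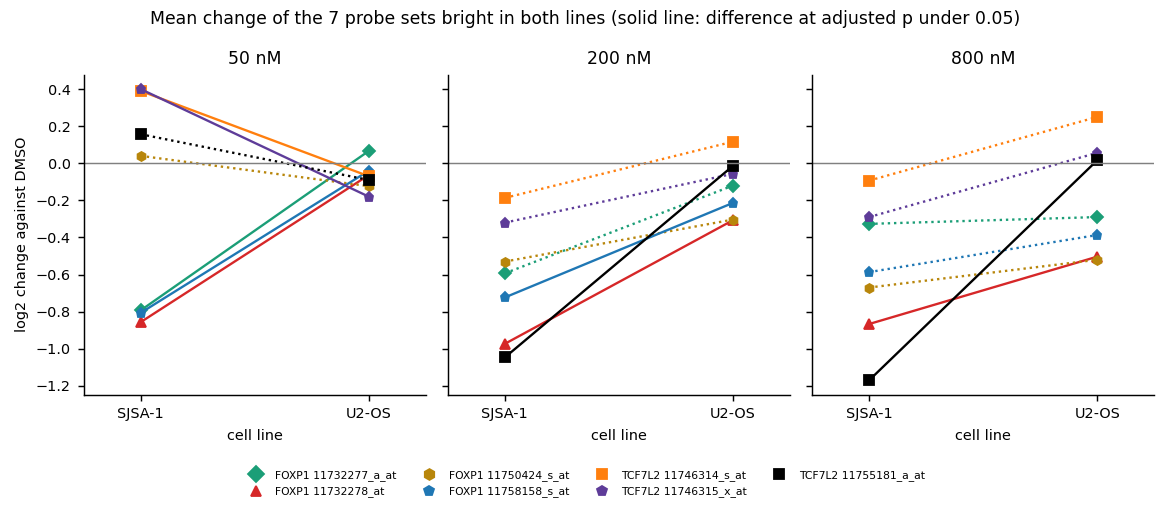
Mean log2 change against DMSO (y axis) of the 7 probe sets bright in both lines at 50, 200 and 800 nM THZ531, with SJSA-1 left and U2-OS right in each panel. Solid lines join changes that differed between the lines at an adjusted p of 0.05 in limma, 5, 3 and 2 of 7 at the 3 doses; dotted lines join the rest.

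Untreated levels of the genes also set the lines apart, in opposite directions. 11732278_at averaged 9.43 in SJSA-1 and 8.26 in U2-OS, a difference of 1.17 ± 0.07 (adjusted p = 3e-12, limma). 11755181_a_at averaged 8.32 in SJSA-1 and 8.71 in U2-OS, a difference of -0.39 ± 0.07 (adjusted p = 9.51e-05, limma). Of 11 sets bright in either line, the 7 FOXP1 sets were higher in SJSA-1, 11750424_s_at by 0.52 (1.43-fold) and the rest by 1.17 to 1.67 (2.26- to 3.18-fold), and the 4 TCF7L2 sets were lower, by -0.39 to -0.50. Among 16840 sets bright in either line, 42.2% were higher and 38.6% lower in SJSA-1. The split into bright and dim uses the same DMSO levels, so it partly fixed the direction of sets bright in only 1 line. These were 11732280_a_at, 11732281_s_at and 11749090_a_at of FOXP1, bright in SJSA-1, and 11746313_a_at of TCF7L2, bright in U2-OS. The 4 FOXP1 sets bright in both lines were higher in SJSA-1 by 0.52 to 1.27. The 3 TCF7L2 sets bright in both lines were lower, by -0.39 to -0.50. Over all 19 sets, 10 of 12 FOXP1 sets were higher and 7 of 7 TCF7L2 sets lower in SJSA-1, and only the dim 11730665_a_at and 11730666_at did not pass. The share over all probe sets, bright and dim, is not given here for this count, and several of the sets share a target. The TCF7L2 sets dim in both lines differed by only -0.21 (11746404_a_at), -0.33 (11747829_x_at) and -0.31 (11751102_x_at).

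The dim sets are given apart, since a signal near background can understate a change. In SJSA-1, 2, 3 and 3 of 5 dim FOXP1 sets were lower at 50, 200 and 800 nM: 11758236_s_at (-1.18, -1.16 and -0.90) and 11732279_at (-1.15, -1.19 and -0.96) at every dose, and 11752099_s_at at 200 and 800 nM. The other dim FOXP1 sets, 11730665_a_at and 11730666_at, changed by -0.04 and 0.12 at 50 nM and passed at no dose. Of 4 dim TCF7L2 sets, 2 were higher at 50 nM and 3 lower at each higher dose. Among all 34510 dim sets of SJSA-1, 15.1%, 15.6% and 14.0% were lower and 14.7%, 29.0% and 19.6% higher at 50, 200 and 800 nM. 11746313_a_at, which shares its target with 11746314_s_at and 11746315_x_at, gave 6.50, 6.48 and 6.39 in DMSO, 7.0, 6.94 and 7.03 at 50 nM, 6.07, 6.04 and 5.92 at 200 nM, and 5.94, 5.83 and 6.06 at 800 nM, with no overlap with DMSO at any dose. Its changes were 0.53, -0.45 and -0.51. In U2-OS, 0, 1 and 4 of 8 dim FOXP1 sets were lower, 1 was higher at 800 nM, and 0 of 3 dim TCF7L2 sets passed at any dose in limma, with 1, 0 and 0 at an unadjusted p under 0.05 at 50, 200 and 800 nM. Among all 34622 dim sets of U2-OS, 0.508%, 9.12% and 14.6% were lower and 0.329%, 6.27% and 12.2% higher.

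Over all 24 arrays, the genes whose signal ran most like 11732278_at of FOXP1, among 5851 genes and by Pearson's r, were RFC4 (replication factor C subunit), CUL1 (cullin of SCF ubiquitin ligases), SLF2, VIRMA (component of the RNA m6A writer) and PPWD1, with r = 0.98 each. Those most like 11755181_a_at of TCF7L2 were UBXN7 (r = 0.99), RBM7 (0.98), INTS12 (Integrator subunit, 0.98), PANK2 (pantothenate kinase, 0.98) and ARID5B (0.97). That the 2 groups differ in shape as the 2 sets do follows from how they were picked, by likeness on these same arrays. At 50 nM in SJSA-1, CUL1 changed by -1.05 and RBM7 by 0.00, and at 200 nM by -1.33 and -1.25. These correlations describe arrays that share line and dose and carry no test.

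Genes that act with TCF7L2 and FOXP1 moved in both directions, but scaled to the spiked-in controls 0 genes of the lists that follow were higher at any dose in either line, with the exception of 1 Wnt signalling gene and 1 gene of the FOXP corepressor list in SJSA-1 at 50 nM. Each gene is represented by 1 probe set, and counts are over genes bright in the line. Over all bright probe sets, the shares called lower were 31.9%, 33.2% and 29.4% in SJSA-1 and 0.552%, 17.9% and 28.4% in U2-OS at 50, 200 and 800 nM, and those called higher 25.3%, 32.6% and 36.5% in SJSA-1 and 0.872%, 12.3% and 23.3% in U2-OS. These shares are not matched to the lists, and the lists were not tested against them. Among partners of TCF7L2 in the nucleus (TCF/LEF factors and the beta-catenin complex), 3, 4 and 5 of 10 were lower and 2, 4 and 4 higher in SJSA-1 at 50, 200 and 800 nM, against 0, 1 and 4 of 10 lower and 0, 1 and 4 higher in U2-OS. At 200 nM in SJSA-1, CTNNB1, which encodes beta-catenin, rose by 0.42 ± 0.07, while BCL9L, a beta-catenin coactivator (-1.0 ± 0.12), CREBBP, a histone acetyltransferase (-0.93 ± 0.08), and TLE3, a Groucho-type corepressor (-0.41 ± 0.07), fell. CREBBP rose by 0.42 ± 0.07 in U2-OS. 

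Of receptors and cytoplasmic components of Wnt signalling, 9, 13 and 9 of 16 were lower and 2, 2 and 2 higher in SJSA-1, against 0, 3 and 5 of 13 lower and 0, 3 and 4 higher in U2-OS. Their median change at 200 nM was -0.41 in SJSA-1 and 0.09 in U2-OS. BTRC, the F-box protein that marks beta-catenin for destruction, fell by 1.36 at 200 nM in SJSA-1, the coreceptor LRP6 by 1.07, the tankyrase TNKS2 by 0.96 and the Frizzled receptor FZD2 by 0.86. In U2-OS, FZD2 fell by 0.54 and LRP6 rose by 0.25. Of Wnt target and feedback genes, 3, 1 and 1 of 3 were lower in SJSA-1 and 0, 0 and 1 higher, against 0, 1 and 1 of 4 lower and 0, 1 and 1 higher in U2-OS. DKK1, a secreted Wnt inhibitor, fell by 2.02 at 200 nM in SJSA-1, where MYC, dim in DMSO, averaged 7.32 at 200 nM and 5.25 in DMSO. In U2-OS, MYC rose by 0.38 and CCND1 fell by 0.20.

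Of other forkhead genes, 5, 9 and 8 of 10 were lower and 3, 0 and 0 higher in SJSA-1, with median changes of -0.14, -0.76 and -1.05, against 0, 2 and 4 of 10 lower and 1, 4 and 4 higher in U2-OS. FOXK2 fell by 1.31 at 200 nM, FOXJ2 by 1.03, FOXO3 by 0.96 and FOXK1 by 0.93, and in U2-OS FOXK2 fell by 0.37 while FOXO3 rose by 0.30. With arrays scaled to the spiked-in controls, 5 and 0 of 10 were lower and higher at 200 nM in U2-OS. The close relatives FOXP2, FOXP3 and FOXP4, and TCF7L1 and LEF1 of the TCF/LEF family, were dim in both lines. Of corepressors of FOXP proteins and genes described as repressed by FOXP1, 3, 1 and 2 of 8 were lower and 4, 3 and 2 higher in SJSA-1, against 0, 2 and 2 of 6 lower and 0, 0 and 3 higher in U2-OS. At 200 nM in SJSA-1, GATAD2B, a subunit of the NuRD complex, fell by 1.05, while MTA2 of the same complex rose by 0.50 and the deacetylase HDAC1 by 0.29, and MTA1 fell by 0.66 in U2-OS. HDAC1, HDAC2 and CTBP1 count in this list and in that of nuclear partners.

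Of 4 bright genes that the study put forward beside these 2, a list chosen in part on these arrays and so no independent evidence of its direction, 3 were lower at each dose in SJSA-1, against 0, 2 and 4 in U2-OS. At 200 nM, LACTB, a mitochondrial protein, changed by -1.16 in SJSA-1 and -0.54 in U2-OS, CEP55, which acts in the last step of cell division, by -0.61 and -0.35, the splicing factor SRSF3 by -0.36 and -0.10, and DNAJB12, a chaperone of the endoplasmic reticulum, by 0.02 and -0.02. The values for SRSF3 in U2-OS and for DNAJB12 did not pass.

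**Figure D5:**
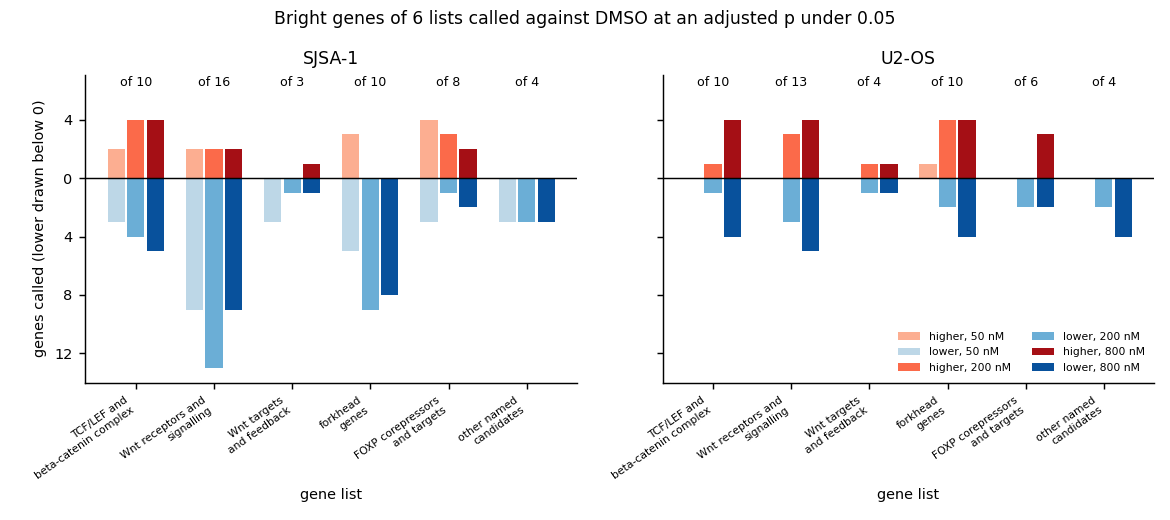
Number of bright genes (y axis) called higher (red, above 0) or lower (blue, below 0) than DMSO at an adjusted p of 0.05 in limma, for 6 gene lists (x axis) at 50, 200 and 800 nM THZ531, light to dark, with SJSA-1 left and U2-OS right and arrays as the authors normalized them; the number of bright genes of a list stands above it. Wnt receptors and signalling genes reach 13 of 16 lower and forkhead genes 9 of 10 lower at 200 nM in SJSA-1.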

How the data were processed

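The members and gene lists were chosen with earlier results of these data known. Per the file headers and labels, the authors deposited 1 table of linear intensity values for 49372 probe sets on 24 Affymetrix PrimeView arrays; their processing notes name MAS5 and RMA with no version, and every value was the antilog of a log2 value given to hundredths. The CEL files were not used here, so background correction and the summary of probes into probe sets could not be varied. Log2 intensity was fitted in limma 3.58.1 (lmFit and eBayes, R 4.3.3) over the 12 arrays and 4 groups of a line, with Benjamini-Hochberg adjustment at 0.05 over 49293 probe sets without the 79 controls. Differences between lines came from 1 fit of all 24 arrays and 8 groups. Within a gene, the mean of its other bright sets on the array was subtracted first. Gene symbols came from the platform annotation updated through RefSeq: 44994 sets had 1 symbol, 1832 several and 2546 none. Context genes were represented by their brightest set, and up to 4 per list with the largest change at 200 nM were named. Scripts were tested on simulated data. Alternatives covered scaling, pseudocounts of 1 and 16, the brightness limit, filters, array weights, the methods' t-test, the replicate block and leaving out single arrays; the list counts under 3 other scalings were added after seeing the data. Arrays have no read depth, so 3 arrays per group limit the precision. No scan date was used.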

Additional observations from a re-analysis of the deposited data

Results flagged for a closer look

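A set of 10 differences between the lines was flagged because the response to THZ531 differed by a direct test (limma, adjusted p under 0.05). Each is given as SJSA-1 minus U2-OS on the log2 scale. Such calls were common over the array. Among 12614 sets bright in both lines, limma called the change lower in SJSA-1 for 24.0%, 27.7% and 25.6% at 50, 200 and 800 nM. It was called higher for 18.1%, 25.8% and 30.9%. Of the 7 FOXP1 and TCF7L2 sets bright in both lines, 3, 3 and 2 were lower and 2, 0 and 0 higher. At 50 nM the flagged differences were -0.86 for 11732277_a_at, -0.79 for 11732278_at and -0.77 for 11758158_s_at of FOXP1, and 0.46 for 11746314_s_at and 0.58 for 11746315_x_at of TCF7L2. At 200 nM they were -0.67 for 11732278_at and -0.51 for 11758158_s_at of FOXP1, and -1.03 for 11755181_a_at of TCF7L2. At 800 nM they were -0.36 for 11732278_at and -1.19 for 11755181_a_at. The FOXP1 sets 11732277_a_at and 11732278_at, share a target, as do 11746314_s_at and 11746315_x_at. The difference of 11746314_s_at passed narrowly (adjusted p = 0.0467, limma) and did not pass in 14 of the 24 fits that left out 1 array. The poly-A controls changed by 0.51, 0.47 and 0.54 in SJSA-1 and by 0.10, 0.55 and 0.94 in U2-OS at 50, 200 and 800 nM. In DMSO they averaged 6.03 in SJSA-1 and 5.11 in U2-OS, below the limit for bright sets. The hybridization controls averaged 9.10 and 9.21 there. They changed by 0.22, 0.18 and 0.21 in SJSA-1 and by -0.18, -0.10 and -0.06 in U2-OS. In U2-OS the poly-A and hybridization controls thus moved in opposite directions. Arrays were also scaled to the poly-A and hybridization controls. The differences of 11746314_s_at (0.06) and 11746315_x_at (0.18) at 50 nM and of 11732278_at (-0.25) at 800 nM then did not pass. The other 7 passed.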

How the results depend on the processing

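The poly-A controls lay below the brightness limit in DMSO in both lines, and in U2-OS they moved against the hybridization controls. Scaling to the poly-A and hybridization controls moved the median of all sets by -0.38, -0.34 and -0.40 in SJSA-1 at 50, 200 and 800 nM. In U2-OS the median moved by 0.02, -0.27 and -0.51, and changes under this scaling are best read relative to these shifts. Under it, 0 sets were higher in SJSA-1 at 50 nM, 6 and 7 were lower in U2-OS at 200 and 800 nM, 4 were called at each step between doses in U2-OS, and between the lines 0 changes were higher at 50 nM and 1 lower at 800 nM. Values that turned were -0.34 for 11750424_s_at at 50 nM in SJSA-1, and -0.45 for 11746315_x_at and -0.49 for 11755181_a_at at 800 nM in U2-OS. Of the 72 list counts, 33 moved by over 1.5 times there, 5 under median centring and 4 under repeated quantile normalization. At 200 nM in U2-OS, 1 set was lower with a replicate block or with only the 2 groups compared, and 0 by the methods' t-test after Benjamini-Hochberg adjustment. With only bright sets fitted, 1 set was called between 200 and 50 nM in U2-OS and 1 between 800 and 200 nM in SJSA-1, and with a trended robust fit 1 between 200 and 50 nM in U2-OS. Requiring a 2-fold change as well left 0 lower and 0 higher in SJSA-1 at 50 nM, 1 lower at 200 and 1 at 800 nM, and 0 lower in U2-OS at 200 and 800 nM. A brightness limit of 200 left 0 sets higher at 50 nM in SJSA-1. Both sets called there, 11746314_s_at and 11746315_x_at, lay below it in DMSO (log2 7.27 and 7.02). They were left out of the count, and their calls were not tested again. Within genes in SJSA-1, the count was 4, 2 and 1 at 50, 200 and 800 nM with that limit. These were FOXP1 sets only, since a single TCF7L2 set was above the limit and TCF7L2 was not tested. The count was 4 and 2 at 50 and 200 nM with dim sets entered (and 1 in U2-OS at 800 nM), and 1 and 2 at 50 and 200 nM with diffSplice. The cause of the other shifts was not tested.

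Leaving out 1 array gave, in SJSA-1, 6 to 6 lower and 1 to 2 higher at 50 nM (1 without DMSO replicate 3 or 50 nM replicate 3), 8 to 10 lower at 200 nM, 6 to 8 at 800 nM, 4 to 4 between 200 and 50 nM, and within genes 1 to 3, 3 to 4 and 4 to 6. In U2-OS it gave 0 to 3 lower at 200 nM (0 without DMSO replicate 3 or 200 nM replicate 1), 3 to 4 at 800 nM and 0 to 1 between 200 and 50 nM. Between the lines it gave 3 to 3 lower and 1 to 3 higher at 50 nM, 3 to 5 lower at 200 nM, 2 to 3 at 800 nM, and 7 to 7 higher and 4 to 4 lower in DMSO. All remaining counts, 0 in the fit of all arrays, were 0 to 0.

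Deviations of arrays with the same replicate number correlated at -0.53 to 0.38 in SJSA-1 and -0.47 to 0.35 in U2-OS. Those of arrays with different numbers correlated at -0.43 to 0.52 and -0.50 to 0.51. Arrays of the same number were thus no more alike, which does not show whether the experiment itself was paired. With the number as a block, besides the count at 200 nM in U2-OS, 1 change instead of 2 was higher in SJSA-1 at 50 nM in the comparison of lines. With 3 arrays per group and a signal near background in the dim sets, small changes could not be resolved.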
